A study of Mus musculus with 9 samples.

Results

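The 10 genes H19, Meg3, Igf2, Dlk1, Mest, Peg3, Plagl1, Cdkn1c, Grb10 and Igf2r were taken by symbol from 54146 genes measured by RNA sequencing of eosinophils sorted from mouse quadriceps muscle. Each symbol matched 1 gene, and all 10 were among the 15886 genes that passed the filter on low counts. The members were chosen by their symbols with their expression values in all 9 of these libraries already known, so all 3 comparisons below count as used in the choice and the levels and differences of its members are given as descriptions. The libraries do not tell the parental copies apart.

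Imprinted genes are transcribed mainly or only from the copy inherited from a given parent. In the mouse the maternal copy is the active one of H19, Meg3, Cdkn1c, Igf2r and, in most tissues, Grb10, and the paternal copy is the active one of Igf2, Dlk1, Mest, Peg3 and Plagl1. Many of these genes act on fetal and postnatal growth, several lie in shared clusters under a common control region, and they have been described in mouse tissues as a network whose members are expressed together, high before birth and low in most adult tissues. In skeletal muscle, H19, Igf2 and Dlk1 are known from development and from regeneration after injury.

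The 3 groups, with 3 libraries each, were mdx mice carrying an IL5 transgene (mdx_IL5Tg, libraries S1 to S3), mdx mice (libraries S4 to S6) and mice carrying the IL5 transgene (IL5Tg, libraries S7 to S9). The mdx mouse lacks dystrophin and undergoes cycles of muscle fibre loss and regeneration, and IL5 is the cytokine that drives production and survival of eosinophils. All animals were adult, and replicates are described as biological. As the strain field gives mdx even for the IL5Tg samples, genotypes were taken from the titles, and the promoter of the transgene is not given in the sources used here. Cells were gated as live, CD45+, CD11c-, Gr1-, MHCII- and SiglecF+, and there was no group without both the mutation and the transgene. Library totals were 26752780 to 58368283 estimated counts. Of 14 eosinophil markers in the table, none was at 0 in any library, and their summed level was 5259 to 5728 CPM (counts scaled to a common library size) in mdx_IL5Tg, 2203 to 3000 CPM in mdx and 5812 to 16081 CPM in IL5Tg. Levels below are CPM with library totals scaled by TMM, a method that aligns libraries on the bulk of their genes, and changes are log2 ratios with their standard error (SE).

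H19 and Mest each carry a microRNA, shown here because of the 10 genes these hosts differed most between mdx and IL5Tg libraries. The mature sequences are RefSeq's on GRCm38.p6, 5′ to 3′, with the seed (bases 2 to 8) in capitals, and no seed is shared among them. The H19 hairpin lies on the minus strand of chromosome 7 and the Mest hairpin on the plus strand of chromosome 6.
miR-675-5p (H19): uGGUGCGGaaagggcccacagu
miR-675-3p (H19): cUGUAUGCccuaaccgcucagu
miR-335-5p (Mest): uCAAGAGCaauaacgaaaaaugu
miR-335-3p (Mest): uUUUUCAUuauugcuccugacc
Both hairpin genes had 0 counts in every library, and mature microRNAs were not measured, so the values below are those of the host transcripts.

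Promoter windows (250 bases before to 50 after the annotated start, RefSeq, GRCm38.p6) matched 8 of the 10 genes, all but H19 and Cdkn1c, with 15 windows in all. The core GGGGCCCC, bound by the zinc-finger factor Plagl1, was searched on both strands. It was present in 1 of the 15 windows, that of Peg3, and in 1.08% of 32851 windows of the same length. The letters TATAAA, a search added after the sequences were seen, were present on either strand in 1 of the 15, that of Meg3, and in 13.6% of all windows. The windows of Peg3, Meg3 and of Dlk1, the neighbour of Meg3, are printed 5′ to 3′ on the strand of the gene, with matches in capitals. In Meg3 the capitals hold overlapping matches of TATAAA on both strands, and Dlk1 has no match.
Peg3, chr7:6730370-6730669, minus strand: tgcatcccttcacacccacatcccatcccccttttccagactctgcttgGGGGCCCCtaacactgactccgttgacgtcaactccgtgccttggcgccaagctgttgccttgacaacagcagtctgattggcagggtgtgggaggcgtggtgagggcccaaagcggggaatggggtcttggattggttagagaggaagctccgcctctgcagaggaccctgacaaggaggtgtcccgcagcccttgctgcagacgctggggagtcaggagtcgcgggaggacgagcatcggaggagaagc
Meg3, chr12:109540746-109541045, plus strand: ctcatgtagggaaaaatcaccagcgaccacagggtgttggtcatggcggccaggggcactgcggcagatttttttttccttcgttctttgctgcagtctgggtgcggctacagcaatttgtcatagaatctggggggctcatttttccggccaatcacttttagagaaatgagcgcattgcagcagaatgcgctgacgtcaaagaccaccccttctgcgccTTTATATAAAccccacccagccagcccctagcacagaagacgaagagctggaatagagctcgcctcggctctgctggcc
Dlk1, chr12:109452573-109452872, plus strand: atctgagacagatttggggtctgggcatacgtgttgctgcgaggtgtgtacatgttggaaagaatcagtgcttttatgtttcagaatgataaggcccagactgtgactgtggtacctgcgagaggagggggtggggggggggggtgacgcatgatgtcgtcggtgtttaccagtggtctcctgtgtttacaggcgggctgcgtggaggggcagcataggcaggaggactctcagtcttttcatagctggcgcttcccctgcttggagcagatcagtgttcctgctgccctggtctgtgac
The 15 windows held 49.7% to 80.0% G and C (median 61.3%), against a median of 52.7% over all windows. A match describes the letters of the window and not occupancy by a factor.

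All 10 genes were higher in mdx than in IL5Tg libraries, and all 10 were lower in mdx_IL5Tg than in mdx libraries. The mdx libraries lay above the IL5Tg libraries without overlap for 10 of 10 genes, where 22.2% of all tested genes did so and 19.7% lay below (41.9% in either direction). The mdx_IL5Tg libraries lay below the mdx libraries without overlap for 9 of 10, the exception being Mest, where 23.2% of all tested genes did so and 18.8% lay above (42.0% in either direction). Between mdx_IL5Tg and IL5Tg, the libraries of H19, Mest and Cdkn1c lay higher without overlap in mdx_IL5Tg (19.4% of all tested genes), those of Meg3 lay lower (16.4%, with 35.9% in either direction), and the other 6 overlapped. At an adjusted p below 0.05 in edgeR's quasi-likelihood test over all 15886 genes, 10 of 10 passed as higher in mdx than in IL5Tg (11.8% of all genes, with 8.96% lower and 20.8% in either direction) and 10 of 10 as lower in mdx_IL5Tg than in mdx (11.5%, with 10.1% higher and 21.6% in either direction). In mdx_IL5Tg against IL5Tg, H19 and Mest passed as higher (4.35% of all genes), Meg3 passed as lower (2.87%, with 7.22% in either direction), and 7 did not pass. Since the genes were picked with these values known, nothing is read from those counts. The median log2 change of the 10 genes was 0.28 in mdx_IL5Tg against IL5Tg, -1.52 in mdx_IL5Tg against mdx and 1.92 in mdx against IL5Tg, where the medians over all tested genes were -0.050, -0.13 and 0.013. The 3 comparisons share libraries in pairs and are not independent of each other.

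**Figure D1:**
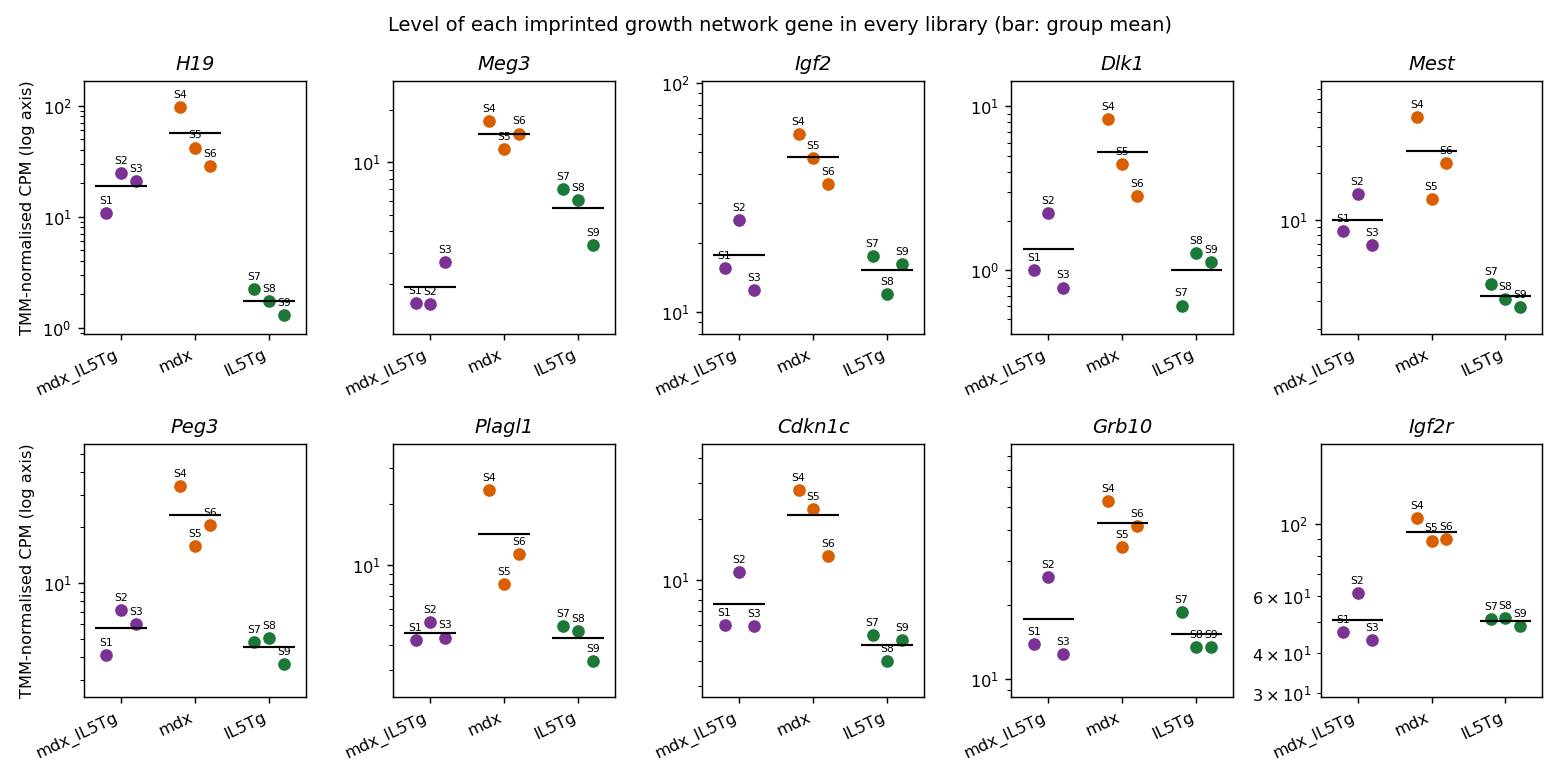
Level of each of the 10 imprinted genes in every library (TMM-scaled CPM, log axis), with mdx_IL5Tg, mdx and IL5Tg from left to right, a point for each library and a line for each group mean. The 3 mdx libraries lie above all 3 IL5Tg libraries in every panel, and H19 runs between 1.3 CPM in IL5Tg S9 and 97.9 CPM in mdx S4.

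The maternally expressed long noncoding RNAs H19 and Meg3 differed in the order of the groups. H19 restrains growth and is induced in regenerating muscle, and it had 10.7, 24.9 and 20.8 CPM in mdx_IL5Tg (S1, S2 and S3), 97.9, 41.9 and 28.6 CPM in mdx (S4, S5 and S6) and 2.24, 1.72 and 1.3 CPM in IL5Tg (S7, S8 and S9). The 3 groups did not overlap, with mdx highest, mdx_IL5Tg between and IL5Tg lowest. The log2 change of H19 was 3.41 (SE 0.49) in mdx_IL5Tg against IL5Tg, -1.58 (SE 0.43) in mdx_IL5Tg against mdx and 4.99 (SE 0.52) in mdx against IL5Tg. Within mdx the spread was wide, since S4 stood far above S6. The call in mdx_IL5Tg against mdx was lost with no filter (-1.59) and with only the groups compared (-1.48).

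Meg3, a noncoding RNA of the Dlk1 cluster known for restraint of cell growth, had 1.56, 1.54 and 2.66 CPM in mdx_IL5Tg, 17.3, 11.8 and 14.6 CPM in mdx and 7.04, 6.07 and 3.35 CPM in IL5Tg. Here mdx_IL5Tg was lowest, IL5Tg lay between and mdx was highest, again with no overlap, so the places of mdx_IL5Tg and IL5Tg were the reverse of those for H19. The change of Meg3 was -1.52 (SE 0.32) in mdx_IL5Tg against IL5Tg, -2.93 (SE 0.33) in mdx_IL5Tg against mdx and 1.41 (SE 0.31) in mdx against IL5Tg on the log2 scale.

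Igf2 encodes the fetal growth factor insulin-like growth factor 2, and Igf2r the receptor that takes it up for degradation and also sorts lysosomal enzymes. Igf2 had 15.5, 25.2 and 12.4 CPM in mdx_IL5Tg, 59.9, 46.7 and 36.2 CPM in mdx and 17.5, 11.9 and 16.1 CPM in IL5Tg. Every mdx library exceeded every other library, while mdx_IL5Tg and IL5Tg overlapped. The log2 change of Igf2 was -1.43 (SE 0.28) in mdx_IL5Tg against mdx, 1.65 (SE 0.28) in mdx against IL5Tg and 0.22 (SE 0.27) in mdx_IL5Tg against IL5Tg. Igf2r had 46.5, 61.4 and 43.8 CPM in mdx_IL5Tg, 104, 89.1 and 89.9 CPM in mdx and 50.8, 51.4 and 48.6 CPM in IL5Tg. It showed the smallest difference of the 10 genes, 0.91 (SE 0.15) in mdx against IL5Tg and -0.90 (SE 0.15) in mdx_IL5Tg against mdx, and group means of 50.6 ± 9.47 CPM in mdx_IL5Tg and 50.3 ± 1.48 CPM in IL5Tg (SD, n = 3 each) that lay within the spread. Grb10, an adaptor that inhibits insulin and IGF1 receptor signalling, had 13.9, 25.8 and 12.7 CPM in mdx_IL5Tg, 52.8, 34.4 and 41.6 CPM in mdx and 18.8, 13.4 and 13.5 CPM in IL5Tg. Its mdx libraries were above all others, and its change was 1.5 (SE 0.28) in mdx against IL5Tg and -1.3 (SE 0.28) in mdx_IL5Tg against mdx.

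Cdkn1c encodes p57, an inhibitor of cyclin-dependent kinases that holds cells out of the cycle. Its level was 6.02, 11.0 and 5.93 CPM in mdx_IL5Tg, 27.7, 22.4 and 13.1 CPM in mdx and 5.38, 3.96 and 5.03 CPM in IL5Tg. The mdx libraries were highest, and the mdx_IL5Tg libraries lay above the IL5Tg libraries by a small margin. The log2 change was 0.67 (SE 0.32) in mdx_IL5Tg against IL5Tg, which did not pass the threshold, -1.46 (SE 0.32) in mdx_IL5Tg against mdx and 2.14 (SE 0.33) in mdx against IL5Tg.

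Plagl1 and Peg3 encode zinc-finger proteins that bind DNA, and Plagl1 is known to act on other imprinted genes. Plagl1 had 4.23, 5.19 and 4.36 CPM in mdx_IL5Tg, 23.3, 8.0 and 11.2 CPM in mdx and 4.96, 4.71 and 3.32 CPM in IL5Tg, and Peg3 had 4.09, 7.18 and 6.03 CPM in mdx_IL5Tg, 33.2, 15.9 and 20.7 CPM in mdx and 4.80, 5.09 and 3.65 CPM in IL5Tg. For both genes mdx_IL5Tg and IL5Tg overlapped and mdx was above them. In mdx against IL5Tg the log2 change was 1.71 (SE 0.36) for Plagl1 and 2.37 (SE 0.31) for Peg3. In mdx_IL5Tg against mdx it was -1.63 (SE 0.36) for Plagl1 and -2.02 (SE 0.30) for Peg3.

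Dlk1, a membrane protein related to Notch ligands that holds precursor cells undifferentiated, had 1.01, 2.24 and 0.783 CPM in mdx_IL5Tg, 8.40, 4.45 and 2.85 CPM in mdx and 0.608, 1.27 and 1.12 CPM in IL5Tg. These are low levels, down to 19 counts in IL5Tg S7, the fewest of any member in any library. The mdx libraries were above all others, with a log2 change of 2.39 (SE 0.52) in mdx against IL5Tg and -1.96 (SE 0.50) in mdx_IL5Tg against mdx. Mest, a hydrolase-like protein of mesoderm, had 8.57, 14.8 and 6.92 CPM in mdx_IL5Tg, 46.4, 13.7 and 23.4 CPM in mdx and 3.87, 3.12 and 2.76 CPM in IL5Tg. Its mdx_IL5Tg libraries lay above all IL5Tg libraries, and mdx_IL5Tg S2 exceeded mdx S5, the overlap named above. The change of Mest was 1.63 (SE 0.42) in mdx_IL5Tg against IL5Tg, -1.47 (SE 0.41) in mdx_IL5Tg against mdx and 3.10 (SE 0.44) in mdx against IL5Tg. Its call in mdx_IL5Tg against mdx was also lost with no filter (-1.49) and with only the groups compared (-1.36).

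**Figure D2:**
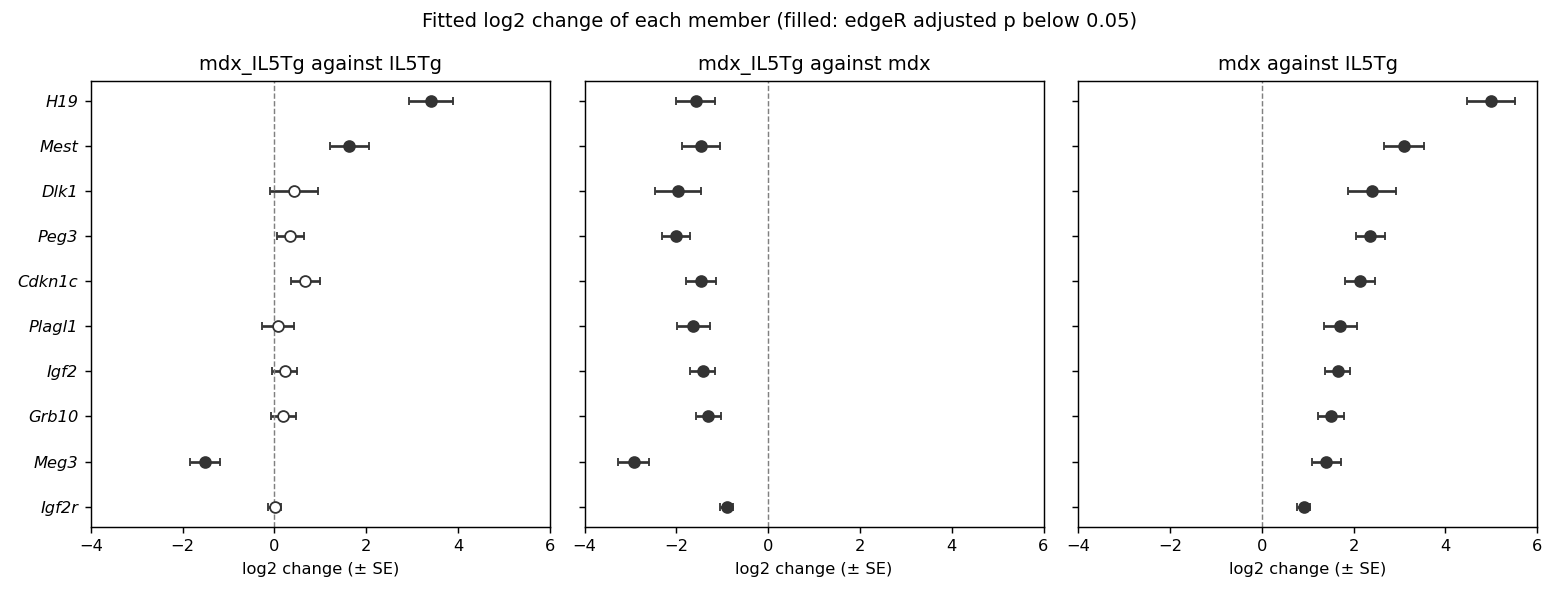
Log2 change of each of the 10 genes in the 3 comparisons, with bars for SE from the fit over all 9 libraries, filled where edgeR's adjusted p was below 0.05 over all genes. In mdx against IL5Tg every value is above 0, from 0.91 for Igf2r to 4.99 for H19, and in mdx_IL5Tg against mdx every value is below 0, from -2.93 for Meg3 to -0.90 for Igf2r.

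Library S4 was the highest of the 3 mdx libraries for 10 of the 10 genes, from 1.17 times the mean of S5 and S6 for Igf2r to 2.78 times for H19. Without S4, all 10 genes still passed in mdx against IL5Tg, with log2 changes of 4.30 for H19, 2.48 for Mest, 1.12 for Plagl1 and 0.81 for Igf2r. In mdx_IL5Tg against mdx, 6 of 10 passed without S4, and H19 (-0.84), Mest (-0.80), Dlk1 (-1.37) and Cdkn1c (-1.14) did not. Without mdx_IL5Tg S1 only 4 passed in that comparison, and the values that no longer passed were -1.19 for H19, -1.68 for Dlk1, -1.25 for Mest, -1.46 for Plagl1, -1.21 for Cdkn1c and -1.06 for Grb10. Without mdx_IL5Tg S3, 7 passed, with H19 at -1.54, Dlk1 at -1.58 and Mest at -1.14 no longer doing so, and without mdx S6, Mest (-1.46) did not. Meg3, Igf2, Peg3 and Igf2r passed in mdx_IL5Tg against mdx whichever library was left out. In mdx_IL5Tg against IL5Tg, H19 passed whichever library was left out. Mest no longer passed without mdx_IL5Tg S1 (1.79) or S2 (1.3), mdx S6 (1.69), or IL5Tg S7 (1.83), S8 (1.66) or S9 (1.58), nor did Meg3 without mdx_IL5Tg S1 (-1.34) or S2 (-1.34), or IL5Tg S7 (-1.26) or S8 (-1.39). Within mdx_IL5Tg, S2 was the highest library for 9 of the 10 genes.

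Exon lengths were the union of exons over all annotated transcripts, from 2039 bases for Cdkn1c to 18089 for Meg3. Per kilobase of exon, H19 was the highest of the 10 genes in mdx, at 22.8 ± 14.9 CPM per kb, and lay at the 90.0th percentile of all tested genes. It was followed by Cdkn1c (10.3 ± 3.64), Igf2r (10.1 ± 0.926), Igf2 (8.32 ± 2.07), Mest (7.06 ± 4.25), Grb10 (4.73 ± 1.02), Plagl1 (1.81 ± 1.03), Peg3 (1.75 ± 0.672), Dlk1 (0.925 ± 0.505) and Meg3 (0.806 ± 0.149), all in CPM per kb (SD, n = 3). Of neighbours in that order, the intervals of mean ± SD separated Grb10 and Plagl1 only. The order depends on annotated length. Without scaling by length, Meg3 averaged 14.6 CPM in mdx and Dlk1 5.23 CPM, the reverse of their order per kilobase. In mdx_IL5Tg, H19 was also first, at 7.64 CPM per kb, and Meg3 last, at 0.106. In IL5Tg the order differed, with Igf2r first at 5.40 CPM per kb, H19 at 0.713 and Dlk1 last at 0.176.

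H19 and Igf2 lie 72.622 kb apart on the minus strand of chromosome 7 (GRCm38, H19 at 142575529 to 142578143, Igf2 at 142650766 to 142666816) and share enhancers, which reach H19 on the maternal and Igf2 on the paternal copy. H19 had 0.690, 0.989 and 1.68 counts per Igf2 count in mdx_IL5Tg, 1.63, 0.897 and 0.790 in mdx, and 0.128, 0.144 and 0.0808 in IL5Tg, with no correction for length. All 3 IL5Tg ratios lay below those of the other 6 libraries, which overlapped. Dlk1 and Meg3 lie 77.664 kb apart on the plus strand of chromosome 12 (Dlk1 at 109452823 to 109463336, Meg3 at 109541001 to 109571726). Meg3 had 1.55, 0.685 and 3.40 counts per Dlk1 count in mdx_IL5Tg, 2.05, 2.66 and 5.14 in mdx, and 11.6, 4.79 and 3.00 in IL5Tg, and these groups overlapped.

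Neighbours of the members in their clusters, picked for position with their values already seen, moved in part with them. Rian, a noncoding RNA downstream of Meg3, averaged 6.46 ± 2.41 CPM in mdx_IL5Tg, 20.4 ± 8.87 CPM in mdx and 9.64 ± 2.73 CPM in IL5Tg (SD, n = 3 each), with a log2 change of -1.66 (SE 0.35) in mdx_IL5Tg against mdx (edgeR adjusted p = 0.0089), a call lost without mdx_IL5Tg S1 (-1.44). Rian also passed as higher in mdx against IL5Tg, where leaving out 1 library gave 0.65 to 1.31. That call of Rian was lost in 6 of these fits and with library totals (1.19). Zim1, a zinc-finger gene beside Peg3, changed by 2.81 (SE 0.59) in mdx against IL5Tg (edgeR adjusted p = 0.0083). Kcnq1ot1, the paternally expressed noncoding RNA whose transcription silences Cdkn1c on that copy, averaged 44.5 ± 23.0 CPM in mdx_IL5Tg, 46.9 ± 19.9 CPM in mdx and 149 ± 44.7 CPM in IL5Tg. Its change was -1.66 (SE 0.40) in mdx against IL5Tg (edgeR adjusted p = 0.017), a call lost with no filter (-1.64). Slc22a3, a cation transporter beside Igf2r, changed by -2.43 (SE 0.50) in mdx against IL5Tg (edgeR adjusted p = 0.007), while Igf2r was higher there. Airn, the antisense noncoding RNA of Igf2r, passed in no comparison. Copg2, which overlaps Mest on the opposite strand, passed as lower in mdx against IL5Tg, where Mest was higher. Leaving out 1 library gave -0.73 to -0.55 for Copg2, with the call lost in 2 of these fits. Mirg, downstream of Meg3, passed as lower in mdx_IL5Tg against mdx. Leaving out 1 library gave -2.46 to -1.34 for Mirg, with the call lost in 5 of these fits.

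**Figure D3:**
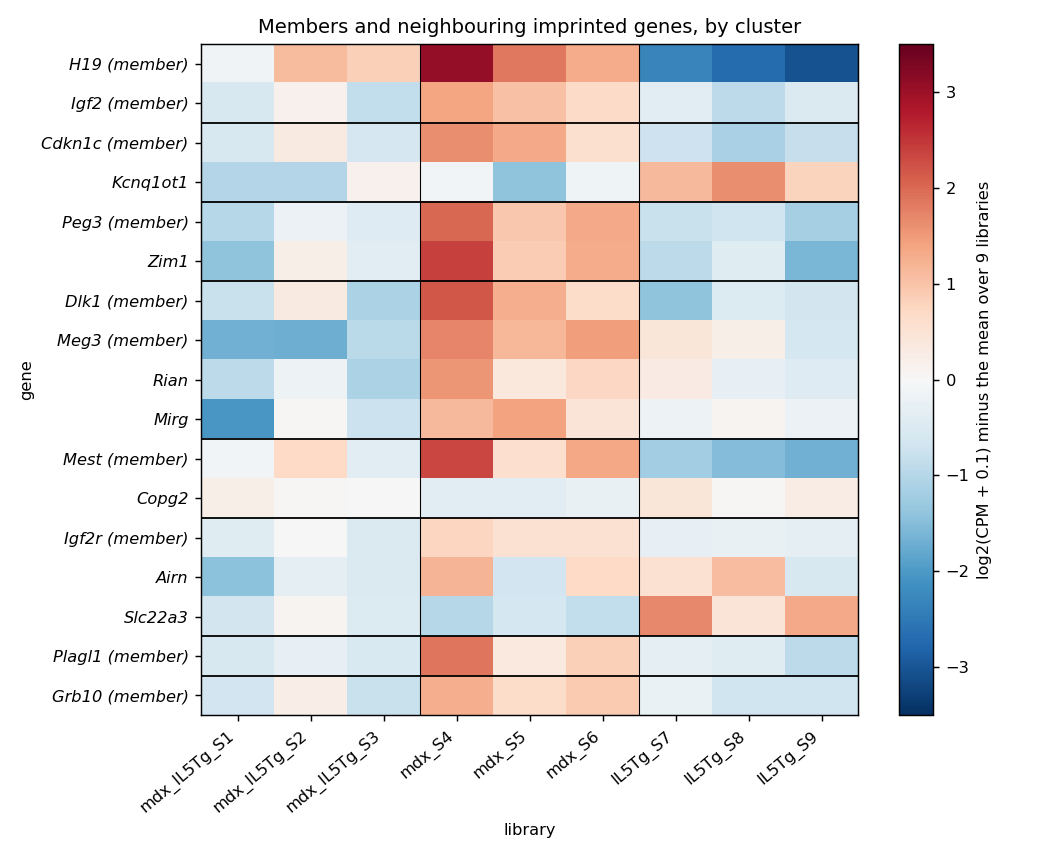
Centred log2 level (CPM plus 0.1) of the members and their cluster neighbours in each library, mdx_IL5Tg, mdx and IL5Tg from left to right, with lines between clusters. H19, Igf2, Dlk1, Meg3 and Rian are above their own mean in the mdx libraries, and Kcnq1ot1 and Slc22a3 are above theirs in IL5Tg.

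Counting could mix some members with overlapping genes. In GENCODE M21, Igf2 shares 3596 exonic bases with Gm49394 on the same strand, which no strand setting would separate. Meg3 shares 1228 with the antisense gene Gm26906, Mest 912 with the antisense gene Copg2 and Cdkn1c 625 with the antisense gene Gm44732. For these antisense genes the mixing depends on the strand setting of the counting, which is not given in the sources used here.

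Of 25 genes of the IGF axis (ligands, receptors, binding proteins and signal adaptors other than the members), 21 were tested. In mdx against IL5Tg, 8 passed as higher and 1 as lower, with a median log2 change of 1.03. In mdx_IL5Tg against mdx, 3 passed as higher and 9 as lower (median -1.16), and in mdx_IL5Tg against IL5Tg, 2 passed as higher and 0 as lower (median 0.16). Over all tested genes, 11.8% passed as higher and 8.96% as lower in mdx against IL5Tg (median 0.013). The shares were 10.1% and 11.5% in mdx_IL5Tg against mdx (median -0.13). They were 4.35% and 2.87% in mdx_IL5Tg against IL5Tg (median -0.050). Igf2bp2, an RNA-binding protein of the Igf2 transcript, rose in mdx against IL5Tg by 2.68 (SE 0.45) on the log2 scale (edgeR adjusted p = 0.0026). Irs1, the docking protein of insulin and IGF1 receptors, rose by 1.81 (SE 0.35) (edgeR adjusted p = 0.0054) and Igfbp5, a secreted IGF-binding protein, by 1.03 (SE 0.23) (edgeR adjusted p = 0.011). In mdx_IL5Tg against mdx the same 3 genes changed by -2.37 (SE 0.44), -2.04 (SE 0.35) and -1.16 (SE 0.23), with edgeR adjusted p of 0.0045, 0.0033 and 0.0064 in that order. Opposite in sign to the members, Irs2, Akt2 and Pik3r1 passed as higher in mdx_IL5Tg against mdx. Leaving out 1 library gave 0.65 to 0.92 for Irs2, 0.47 to 0.57 for Akt2 and 0.32 to 0.57 for Pik3r1. Akt2 and Pik3r1 each lost that call in 3 of these fits. With library totals all 3 genes lost it (Irs2 0.39, Akt2 0.11, Pik3r1 0.085). Akt2 (0.43) and Pik3r1 (0.41) also lost it with no filter, and Pik3r1 (0.37) with a filter of 50 counts in 3 libraries. In mdx against IL5Tg the gene that passed as lower was Pik3r1. That call was lost with library totals (-0.35), no filter (-0.45) and only the groups compared (-0.47). Igf1 rose by 1.48 (SE 0.37) in mdx against IL5Tg (edgeR adjusted p = 0.018), a call lost without mdx S4 (0.97), IL5Tg S8 (1.34) or IL5Tg S9 (1.42). Igf1r, the receptor through which Igf1 and Igf2 signal, averaged 230.4 ± 28.3 CPM in mdx_IL5Tg, 222 ± 9.80 CPM in mdx and 241 ± 30.9 CPM in IL5Tg and passed in no comparison.

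Of 54 other imprinted genes, 53 were in the table and 36 were tested. In mdx against IL5Tg, 12 passed as higher and 6 as lower (median log2 change 0.46). In mdx_IL5Tg against mdx, 3 passed as higher and 8 as lower (median -0.38), and in mdx_IL5Tg against IL5Tg, 2 passed as higher and 3 as lower (median -0.05). Of all tested genes, 11.8% passed as higher and 8.96% as lower in mdx against IL5Tg (median 0.013). The shares were 10.1% and 11.5% in mdx_IL5Tg against mdx (median -0.13). They were 4.35% and 2.87% in mdx_IL5Tg against IL5Tg (median -0.050). Peg10, a paternally expressed gene derived from a retrotransposon, averaged 304 ± 64.4 CPM in mdx_IL5Tg, 659.9 ± 96.2 CPM in mdx and 196 ± 33.0 CPM in IL5Tg and rose by 1.76 (SE 0.19) in mdx against IL5Tg (edgeR adjusted p = 2.2e-04). Sgce, which encodes epsilon-sarcoglycan and neighbours Peg10, rose by 1.22 (SE 0.25) there (edgeR adjusted p = 0.0075). Nap1l5, a paternally expressed gene within an intron of another gene, changed by -1.14 (SE 0.22) in mdx against IL5Tg (edgeR adjusted p = 0.0052) and by 2.24 (SE 0.22) in mdx_IL5Tg against mdx (edgeR adjusted p = 1.1e-04), both opposite in sign to the 10 members.

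Markers of other cells moved with the groups, and their part in these results was not tested. Fewer cells of a type and less RNA per cell cannot be told apart in such libraries. The 14 fibroblast markers summed to 841 to 3236 CPM in mdx_IL5Tg, 4778 to 11317 CPM in mdx and 1020 to 2352 CPM in IL5Tg, and 12 of 14 passed as higher in mdx than in IL5Tg. The 13 myoblast and regenerating muscle markers in the table summed to 14.6 to 29.9 CPM in mdx_IL5Tg, 52.6 to 77.1 CPM in mdx and 20.7 to 43.0 CPM in IL5Tg, where Ncam1 alone gave 78.3%. Without Ncam1 they summed to 16.3, 21.2 and 7.94 CPM in mdx_IL5Tg, 65.9, 48.5 and 45.0 CPM in mdx, and 8.19, 5.71 and 4.73 CPM in IL5Tg, and 10 of the 12 tested passed as higher in mdx than in IL5Tg and 1, Ncam1, as lower. Of the list, Myf6, Chrng, Myh3, Myh8 or Myf5 stood at 0 in 6 of the libraries, mdx S5 among them. Of the mature fibre markers, Neb averaged 467 CPM in mdx_IL5Tg, 68.6 CPM in mdx and 477 CPM in IL5Tg, Mb was at 0 in mdx S5 and IL5Tg S7, and the list without Neb summed to 28.0, 35.5 and 32.6 CPM in mdx_IL5Tg, 170, 79.6 and 79.2 CPM in mdx, and 12.7, 16.6 and 12.7 CPM in IL5Tg. Of 16 fibre markers tested, 14 passed as higher in mdx than in IL5Tg and 1 as lower. Of all tested genes, 11.8% passed as higher in that comparison and 8.96% as lower. Within mdx, S4 was the highest library in the myoblast, mature fibre and macrophage sums, S5 in the fibroblast sum and S6 in the endothelial, eosinophil and proliferation sums. Within mdx_IL5Tg, S2 was highest in the fibroblast, myoblast, endothelial and proliferation sums and in the mature fibre sum without Neb, S3 in the macrophage sum and the full mature fibre sum, and S1 in the eosinophil sum. The 13 macrophage markers summed to 2645 to 2819 CPM in mdx_IL5Tg, 2018 to 2922 CPM in mdx and 1681 to 1999 CPM in IL5Tg. Adgre1 alone gave 81.8%, 48.0% and 85.4% of the mean sums, in that order. Without it these markers summed to 379 to 589 CPM in mdx_IL5Tg, 936 to 1732 CPM in mdx and 250 to 292 CPM in IL5Tg. Macrophage markers passed as higher in mdx than in IL5Tg for 11 of 13, endothelial markers for 4 of 12, eosinophil markers for 0 of 14 (8 passed as lower) and proliferation markers for 0 of 15 (3 passed as lower). In mdx_IL5Tg against mdx, 13 of 14 fibroblast, 10 of 13 macrophage, 9 of 16 fibre and 8 of 12 myoblast markers passed as lower. Endothelial markers did so for 1 of 12, proliferation markers for 1 of 15 and eosinophil markers for 0 of 14. As higher there, 5 eosinophil markers, 1 macrophage marker and 1 fibre marker passed. Of all tested genes, 11.5% passed as lower in that comparison and 10.1% as higher. In mdx_IL5Tg against IL5Tg, 6 of 16 fibre, 5 of 13 macrophage and 2 of 12 myoblast markers passed as higher. As lower there, 7 of 15 proliferation markers and 1 myoblast marker passed. No fibroblast, endothelial or eosinophil marker passed in either direction. Over all tested genes in this comparison, 4.35% passed as higher and 2.87% as lower.

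**Figure D4:**
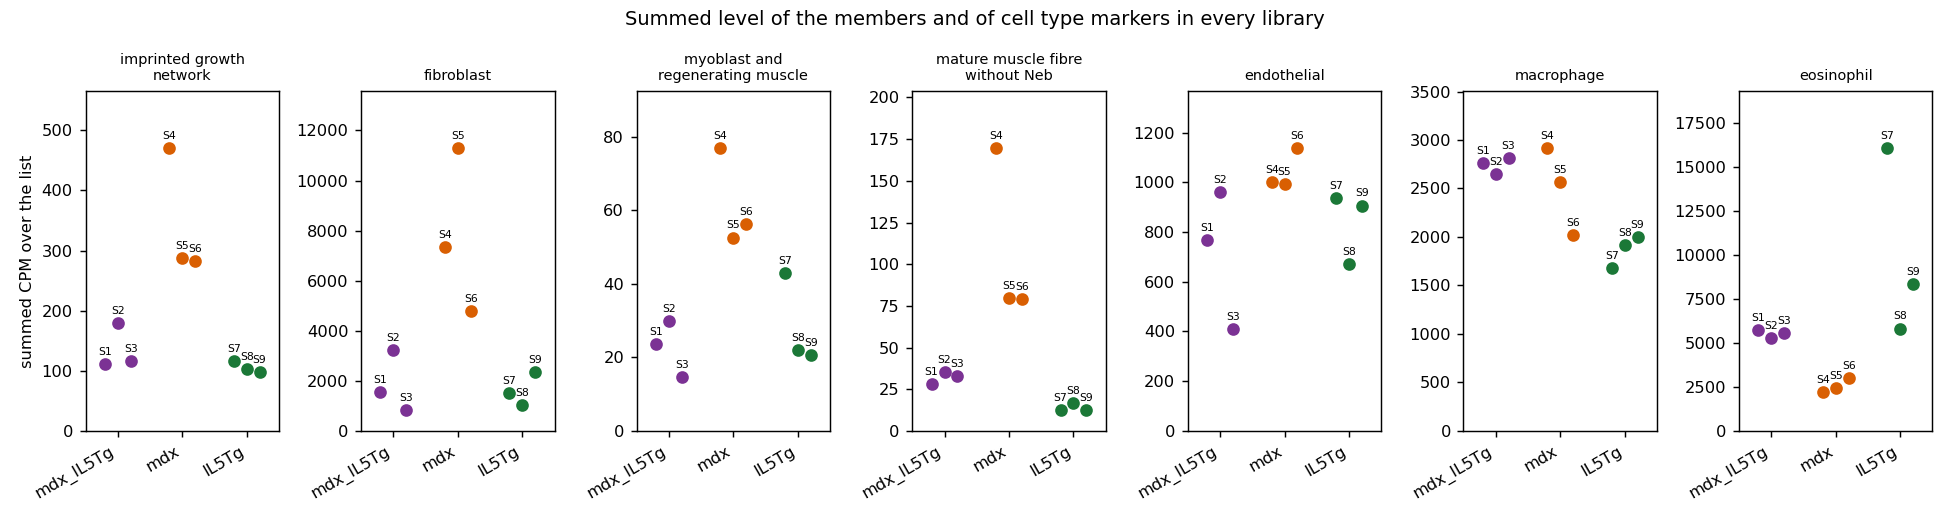
Summed level of the members and of 6 marker lists in every library (TMM-scaled CPM, axes from 0), with mdx_IL5Tg, mdx and IL5Tg from left to right. The mature fibre panel leaves out Neb. The macrophage panel includes Adgre1, which gave 81.8% of that sum in mdx_IL5Tg, 48.0% in mdx and 85.4% in IL5Tg. The summed members reach 112, 179 and 116 CPM in mdx_IL5Tg, 471, 288 and 282 CPM in mdx, and 116, 103 and 98.7 CPM in IL5Tg.

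The genes whose centred log2 profile over the 9 libraries was nearest to a member were found by root mean square difference (RMS). Only tested genes kept by a filter on names were searched. It left out predicted, Rik, clone and pseudogene names, and any name starting with Mir, Snor, Rpl, Rps or Rn. Some ordinary genes share those letters, so a nearer profile could have been left out. Nearest to H19 were Vmn1r43 (0.614), Mybpc2 (0.727) and Trem2 (0.756), the widest distances of any member. Nearest to Mest were Prnd (0.253), Capn6 (0.285) and Actn3 (0.299), the last a fast-fibre protein, and nearest to Meg3 were Alpk1 (0.368), Slfn4 (0.420) and Ikbke (0.457). Igf2 was nearest to Lrig1 (0.112), Dennd2a (0.113) and Ppic (0.115), and Grb10 to Myh10 (0.109), Lama4 (0.130) and Dennd2a (0.136). Dlk1 was nearest to Ptn, Tenm3 and Rab3il1, Peg3 to Prune2, Inhba and Clmp, Plagl1 to Uggt2, Cacna1d and Ednrb, Cdkn1c to Cpt1c, Nrep and Maged2, and Igf2r to Cluh, Rubcn and Sh3bp2. Between members, Igf2 and Grb10 were closest (0.204) and H19 and Meg3 farthest apart (2.07).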

How the data were processed

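RNA from eosinophils sorted from quadriceps was sequenced after low-input amplification (NEBNext Ultra Low Input kit, per the labels' protocols). RSEM 1.3.0, STAR 2.5.3, cutadapt 2.10, limma and the mm10 build are listed in the submitters' processing notes, and the sources used here do not give settings, annotation or strand. The deposited values are expected counts per gene, and 6.03% were not whole, so all were rounded. A filter on low counts (filterByExpr, minimum count 10) was applied, and counts were scaled by TMM and fitted over all 9 libraries with edgeR 4.0.16 (R 4.3.3) robust quasi-likelihood, with Benjamini-Hochberg adjustment over 15886 genes and a threshold of 0.05. Profiles used log2 CPM with a prior count of 2. The script was tested on simulated counts. Alternatives were RLE factors, library totals, limma voom (3.58.1), DESeq2 (1.42.0), other filters, pairs of groups and leaving out each library. Columns were matched to groups by name. No libraries of the same group were duplicates, and pairs across groups were not part of that check. By rule, all members are named, with genes of the other imprinted and IGF lists drawn from the 12 of each with the smallest p, summed markers and the 3 nearest profiles among genes kept by the name filter. Igf1r, Airn, Mirg, Copg2 and other overlapping genes, and single markers, were named outside it with their values known. The members and lists were chosen with earlier results of these data known.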

Additional observations from a re-analysis of the deposited data

How the results depend on the processing

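All 10 members passed as higher in mdx against IL5Tg under all 16 alternatives (160 of 160 values). In mdx_IL5Tg against mdx, 142 of 160 kept their call and none reversed, and 8 members, all but H19 and Mest, passed with no filter and with only the groups compared. Leaving out 1 library gave 1 to 3 members in mdx_IL5Tg against IL5Tg, 4 to 10 in mdx_IL5Tg against mdx and 10 to 10 in mdx against IL5Tg. For IGF axis genes it gave 0 to 3, 4 to 12 and 6 to 11, for other imprinted genes 0 to 10, 3 to 14 and 10 to 19, and for all genes 110 to 2641, 1521 to 4057 and 1961 to 3837, in the same order. In mdx_IL5Tg against IL5Tg, 2464 genes were called by DESeq2 and 1816 with only the groups compared, against 1147, and DESeq2 called 8 other imprinted genes. With only the groups compared, 7 IGF axis genes passed in mdx_IL5Tg against mdx. Members that had not passed in mdx_IL5Tg against IL5Tg changed sign with library totals (Plagl1 -0.14, Grb10 -0.017, Igf2r -0.20), voom (Igf2r -0.0084) and a filter of 50 counts in 3 libraries (Igf2r -0.036). Leaving out 1 library gave -0.075 to 0.48 for Igf2, -0.11 to 0.75 for Dlk1, -0.15 to 0.44 for Grb10, -0.11 to 0.16 for Igf2r and -0.025 to 0.24 for Plagl1. Mest (1.42 with library totals, 1.56 with voom, 1.63 with no filter) no longer passed in that comparison. Library totals moved the median log2 change of all genes to -0.27 in mdx_IL5Tg against IL5Tg, -0.46 in mdx_IL5Tg against mdx and 0.12 in mdx against IL5Tg, and the share of calls that were higher to 24.1%, 15.7% and 70.7%, against 60.2%, 46.7% and 56.8% with TMM. That share was 49.0% with DESeq2 in mdx_IL5Tg against IL5Tg and 60.2% with only the groups compared in mdx_IL5Tg against mdx. Leaving out 1 library moved it between 49.8% (without mdx_IL5Tg S3) and 98.2% (without mdx_IL5Tg S1, 108 higher and 2 lower) in mdx_IL5Tg against IL5Tg, 49.3% (without mdx_IL5Tg S2) and 71.8% (without mdx_IL5Tg S1) in mdx_IL5Tg against mdx, and 45.8% (without IL5Tg S8) and 58.1% (without mdx S5) in mdx against IL5Tg. The cause of these shifts was not tested. No paired analysis was possible because the columns carry library numbers and no replicate numbers.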
